A study of Mus musculus with 18 samples.

Results

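The genes described here are 7 genes of corticosteroid signalling: the kinase gene Sgk1, the corticosteroid targets Fkbp5, Tsc22d3, Hif3a and Zbtb16, and the receptor genes Nr3c1 and Nr3c2. They were taken by symbol, through the GENCODE mouse M21 annotation, from 54281 gene IDs in a table of estimated read counts. All 7 were found, and all 7 were among the 19199 genes that passed a filter on low counts in cortex. The set was selected on measured levels of these libraries, above all those of the stages labelled A18w and A6w, so the 7 genes are described there without a test. Libraries of bulk RNA were made from cerebral cortex of male C57BL/6J mice, either labelled Mcph1 knockout (Mcph1KO) or wild type (WT), at E17.5, P4, A6w and A18w. Wild-type R1 mouse embryonic stem cells (mESC) were measured as well. Each of the 9 groups had 2 libraries, of 23531045 to 32041849 counts each. The labels do not say what kind of knockout allele was used, or whether each library is a separate animal, so p-values measure the spread between libraries. Levels are counts scaled to library size with TMM factors (CPM), and a gene was called at an adjusted p under 0.05 in edgeR's quasi-likelihood test over all genes.

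The targeted gene does not mark the genotypes in these counts. Mcph1, a regulator of chromosome condensation, had 12.2 and 13.2 CPM in E17.5 libraries labelled Mcph1KO, against 12.5 and 10.1 CPM in E17.5 WT libraries. At A6w it had 16.2 and 16.6 CPM in libraries labelled Mcph1KO, against 9.66 and 9.02 CPM in WT libraries. Averaged over the stages it was 0.44 ± 0.09 log2 higher (SE) in libraries labelled Mcph1KO, which was not called (edgeR adjusted p = 0.368), so the groups carry their labels here. Tissue markers followed the labels: the pluripotency gene Pou5f1 had 1057 and 1427 CPM in mESC libraries and at most 0.25 CPM in cortex libraries, and the cortical neuron gene Neurod6 had 0 CPM in mESC libraries and 51.1 to 587 CPM in cortex libraries. Some adult libraries stood apart by region. The summed level of 10 striatal genes was 2149 and 852 CPM in A18w libraries labelled Mcph1KO and 2667 and 573 CPM in A18w WT libraries, against 235 to 386 CPM in the 4 A6w libraries. In bulk RNA, fewer cells of a type and less RNA per cell cannot be told apart.

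As background, corticosterone, the main glucocorticoid of mice, crosses into cells and binds 2 nuclear receptors, the glucocorticoid receptor (Nr3c1) and the mineralocorticoid receptor (Nr3c2). The bound receptor enters the nucleus and binds a palindromic DNA element near its target genes. Sgk1 encodes serum- and glucocorticoid-regulated kinase 1, which controls ion channels, transporters and FOXO factors and is known in neurons and in oligodendrocytes. Fkbp5 encodes an HSP90 co-chaperone that lowers the receptor's affinity for hormone. Tsc22d3 encodes GILZ, an anti-inflammatory leucine zipper protein. Hif3a encodes a regulator of the hypoxia response, and Zbtb16 encodes the transcription factor PLZF; transcripts of both are induced by glucocorticoids.

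The promoter sequences of RefSeq show where the receptor's element lies at Sgk1. Windows of 250 bases before annotated start sites (GRCm38.p6) were searched for 5 of the 7 genes: 6 for Sgk1, 3 for Tsc22d3 and 1 each for Fkbp5, Hif3a and Nr3c2. None was held for Zbtb16, and Nr3c1 was left out of the search. The window counts given for these genes therefore say nothing on Zbtb16 or Nr3c1. The perfect palindrome, AGAACA and TGTTCT with any 3 bases between them, searched on both strands, was found in 3 of 32851 windows (0.00913%), and 1 of these belongs to Sgk1, so that window is shown first with the element in capitals. A further pair of windows is shown for comparison, the one before the most downstream Sgk1 start site and the one of Fkbp5; these hold no match to the palindrome and no match to its half-site AGAACA.
Sgk1 (chr10:21993640-21993889, + strand): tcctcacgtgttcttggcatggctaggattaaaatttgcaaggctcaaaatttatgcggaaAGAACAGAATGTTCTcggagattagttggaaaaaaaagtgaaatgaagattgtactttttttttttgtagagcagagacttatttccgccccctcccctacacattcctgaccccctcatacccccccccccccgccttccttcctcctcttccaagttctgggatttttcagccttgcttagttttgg
Sgk1 (chr10:21994416-21994665, + strand): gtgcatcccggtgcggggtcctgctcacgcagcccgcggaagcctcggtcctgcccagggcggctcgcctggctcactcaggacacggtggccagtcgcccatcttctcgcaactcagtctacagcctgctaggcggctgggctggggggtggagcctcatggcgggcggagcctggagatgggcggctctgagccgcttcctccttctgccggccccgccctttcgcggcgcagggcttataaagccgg
Fkbp5 (chr17:28486150-28486399, - strand): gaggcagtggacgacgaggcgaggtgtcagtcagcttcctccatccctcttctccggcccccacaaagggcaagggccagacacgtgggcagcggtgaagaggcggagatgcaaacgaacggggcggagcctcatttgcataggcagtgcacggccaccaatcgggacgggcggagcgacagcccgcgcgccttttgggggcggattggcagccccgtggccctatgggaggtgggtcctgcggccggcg
The Sgk1 element lies at chr10:21993701-21993715 and ends 175 bases before the start site at 21993890 and 951 bases before the one at 21994666. A shorter core, GNACA and TGTNC with any 3 bases between them, includes the palindrome. It was present in 127 windows (0.387%) and in 1 of the 12 windows of these 5 genes, the same Sgk1 window. The half-site AGAACA was present in 5284 windows (16.1%) and in 4 of the 12; in the Sgk1 window shown first, matches to it lie inside the palindrome as well. A match is a run of letters only, and the counts do not tell which start site a read came from.

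Sgk1 (ENSMUSG00000019970.15, chr10:21882184-21999903 on the + strand, GRCm38) was lowest at E17.5 and highest in A18w WT libraries. At E17.5 it had 18.5 and 25.4 CPM in libraries labelled Mcph1KO and 22.8 and 29.3 CPM in WT libraries. At P4 it had 53.0 and 53.1 CPM in libraries labelled Mcph1KO and 55.0 and 54.9 CPM in WT libraries. At A6w it had 115 and 144 CPM in libraries labelled Mcph1KO, against 53.7 and 58.6 CPM in WT libraries. Both A6w libraries labelled Mcph1KO thus lay above both A6w WT libraries, which stayed in the range seen at P4 or just above it. At A18w it had 121 and 141 CPM in libraries labelled Mcph1KO, against 263 and 188 CPM in WT libraries, and the order of the genotypes was turned round. Ordered by level, the E17.5 groups came first and the P4 groups and the A6w WT group lay together between 53.0 and 58.6 CPM. The A6w and A18w groups labelled Mcph1KO followed, with ranges that overlap, and the A18w WT group stood above all others. Group means were 131 ± 13.8 CPM in A18w libraries labelled Mcph1KO and 226 ± 52.6 CPM in A18w WT libraries (SD, n = 2 each).

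**Figure D1:**
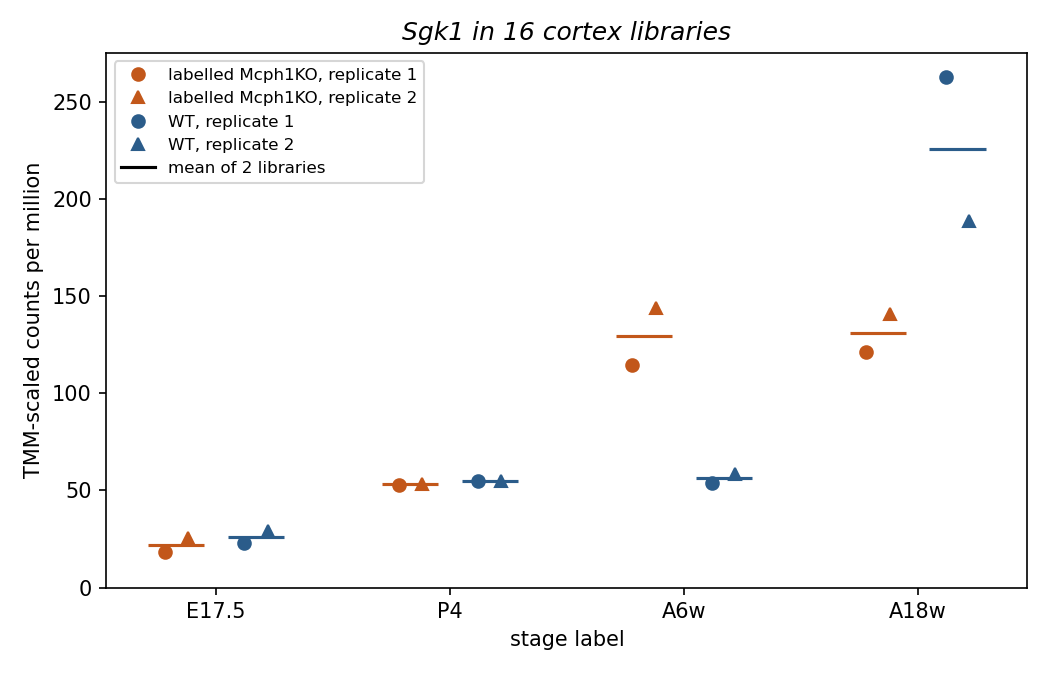
Sgk1 level (y axis, TMM-scaled CPM) in each of the 16 cortex libraries by stage label (x axis); circles and triangles are replicates 1 and 2, orange is labelled Mcph1KO and blue is WT, and the line is the mean of 2 libraries. The libraries labelled Mcph1KO lie above WT at A6w and below WT at A18w.

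The step between A18w and A6w, for which the genes were chosen, was carried by the WT libraries for Sgk1. Averaged over the genotype labels, Sgk1 was 1.01 ± 0.14 log2 higher at A18w (SE from the fit of 16 libraries), a fold of 2.02. In libraries labelled Mcph1KO alone the difference was 0.02 ± 0.20, and in WT libraries alone it was 2.01 ± 0.21, a fold of 4.01. Across all genes, 26 (0.135%) were called in the averaged step, 0.104% higher and 0.0313% lower. In libraries labelled Mcph1KO alone 0 (0%) were called, and in WT libraries alone 5 (0.026%), 0.0104% higher and 0.0156% lower; nothing is read from these shares for the 7 genes. The pooled SD of Sgk1 within the A6w and A18w groups was 0.22 log2.

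Tsc22d3 (ENSMUSG00000031431.13, chrX:140539528-140600659 on the - strand) was the target whose step differed in sign between the genotype labels. At A18w it had 88.1 and 99.4 CPM in libraries labelled Mcph1KO and 148 and 111 CPM in WT libraries. At A6w it had 118 and 138 CPM in libraries labelled Mcph1KO and 105 and 88.0 CPM in WT libraries. As for Sgk1, the libraries labelled Mcph1KO lay above WT at A6w and below WT at A18w, without overlap. The step was -0.45 ± 0.17 log2 in libraries labelled Mcph1KO, 0.43 ± 0.17 in WT libraries and -0.01 ± 0.12 averaged over both. Before the adult stages its levels were even, with 34.3 to 44.6 CPM over the 8 libraries of E17.5 and P4.

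Fkbp5 (ENSMUSG00000024222.17, chr17:28399094-28517527 on the - strand) was lower at A18w than at A6w under both labels. At A18w it had 30.7 and 30.6 CPM in libraries labelled Mcph1KO and 40.0 and 33.2 CPM in WT libraries. At A6w it had 36.1 and 49.6 CPM in libraries labelled Mcph1KO and 69.9 and 45.4 CPM in WT libraries. The stages did not overlap within either label, and the step was -0.48 ± 0.23 log2 in libraries labelled Mcph1KO and -0.65 ± 0.23 in WT libraries. Among the cortex stages its mean was highest at E17.5, with 72.6 and 65.9 CPM in libraries labelled Mcph1KO and 75.9 and 58.2 CPM in WT libraries. A6w WT 1 and P4 Mcph1KO 1 (63.1 CPM) lay within that range.

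Hif3a (ENSMUSG00000004328.15, chr7:17031507-17062427 on the - strand) rested on few reads in adults. At A18w it had 43 and 45 counts (1.85 and 2.0 CPM) in libraries labelled Mcph1KO and 108 and 65 counts (5.07 and 2.86 CPM) in WT libraries. At A6w it had 3.15 and 8.88 CPM in libraries labelled Mcph1KO and 8.28 and 4.22 CPM in WT libraries. The A6w libraries of both labels cover the same range, and only under the Mcph1KO label were both A18w libraries below both of A6w. The step was -1.64 ± 0.67 log2 in libraries labelled Mcph1KO and -0.66 ± 0.64 in WT libraries. At P4 the libraries numbered 1 had 16 (labelled Mcph1KO) and 16.1 CPM (WT), and those numbered 2 had 5.81 and 5.08 CPM. The spread within a group was thus wide there, and it followed the library number under both labels.

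Zbtb16 (ENSMUSG00000066687.5, chr9:48654297-48836222 on the - strand) was highest on average at A6w. At A18w it had 11.4 and 28.1 CPM in libraries labelled Mcph1KO and 26.6 and 28.8 CPM in WT libraries. At A6w it had 25.6 and 44.3 CPM in libraries labelled Mcph1KO and 47.4 and 56.4 CPM in WT libraries. The stages overlapped under the Mcph1KO label and not in WT, and the step was -0.82 ± 0.38 log2 in libraries labelled Mcph1KO and -0.91 ± 0.38 in WT libraries. Of the 4 targets beside Sgk1, Tsc22d3 in WT libraries was thus the only one with a higher level at A18w, and its difference was smaller than that of Sgk1.

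The receptor genes had averaged steps near 0 between A18w and A6w, with a wide spread for Nr3c2. Nr3c1 (ENSMUSG00000024431.15, chr18:39410545-39519421 on the - strand) had 113 and 154 CPM in A18w libraries labelled Mcph1KO and 134 and 147 CPM in A18w WT libraries. It had 113 and 137 CPM in A6w libraries labelled Mcph1KO and 131 and 135 CPM in A6w WT libraries, so the groups overlap, and the averaged step was 0.09 ± 0.15 log2. Nr3c2 (ENSMUSG00000031618.13, chr8:76899442-77245012 on the + strand) had 37.4 and 68.6 CPM in A18w libraries labelled Mcph1KO and 38.6 and 63.7 CPM in A18w WT libraries. It had 43.0 and 37.6 CPM in A6w libraries labelled Mcph1KO and 104 and 28.0 CPM in A6w WT libraries. The averaged step of Nr3c2 was 0.01 ± 0.34 log2 (0.40 ± 0.48 in libraries labelled Mcph1KO and -0.37 ± 0.48 in WT libraries; -0.32 without A6w WT 2 and 0.63 without A6w WT 1), and the A6w WT libraries alone spanned the values of all other adult libraries. The 3 adult libraries with the highest Nr3c2 levels were also the highest in mean log2 CPM of 10 hippocampal genes, though not in their summed CPM. Their mean log2 CPM over these genes was 4.64 in A18w Mcph1KO 2, 4.56 in A18w WT 2 and 5.53 in A6w WT 1, against 2.58 to 3.02 in the other 5 adult libraries. The sums were 466 CPM in A18w Mcph1KO 2, 458 CPM in A18w WT 2 and 707 CPM in A6w WT 1. In A6w Mcph1KO 1, where Nr3c2 had 43.0 CPM, the sum was 469 CPM. The part of these markers in the Nr3c2 values was not tested.

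**Figure D2:**
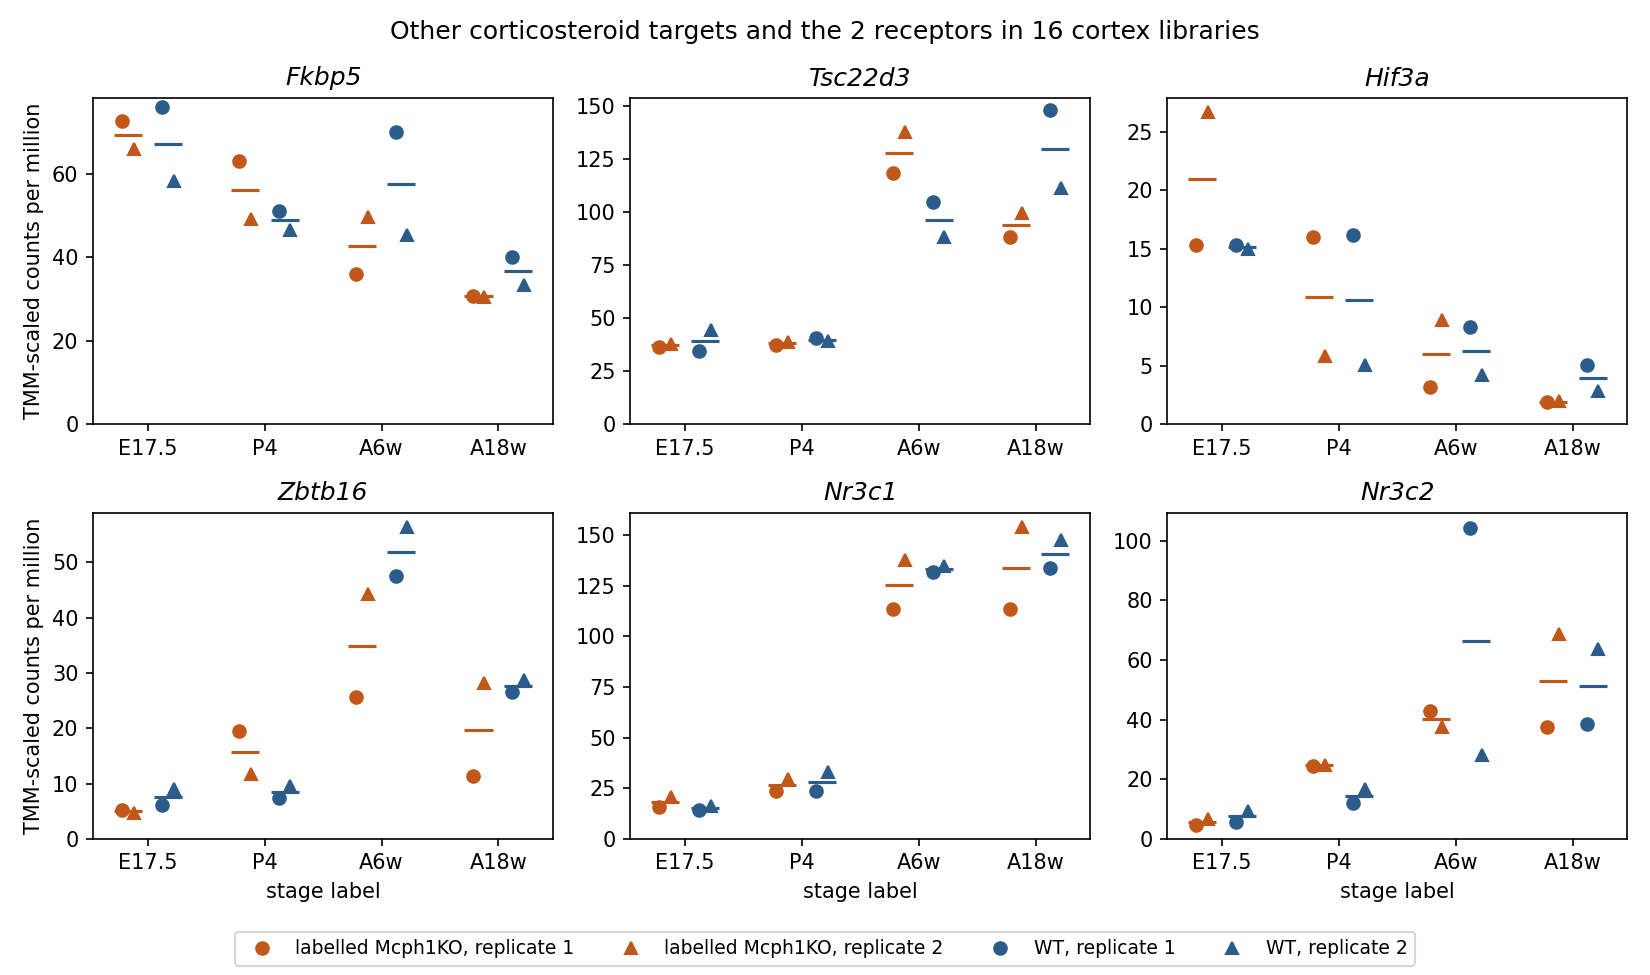
Levels of Fkbp5, Tsc22d3, Hif3a, Zbtb16, Nr3c1 and Nr3c2 (y axes, TMM-scaled CPM, each from 0) in the 16 cortex libraries by stage label (x axis); symbols as in the Sgk1 plot, lines are means of 2 libraries. Tsc22d3 and Nr3c1 are high at both adult stages, Zbtb16 is highest on average at A6w, and Fkbp5 and Hif3a have their highest stage means at E17.5.

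A wider list of 26 other corticosteroid-induced genes was set beside the 7 in the same step. It was drawn from general knowledge of receptor targets, but with earlier results of these data known, so it is not an independent check. None of the 26 was called between A18w and A6w by edgeR, averaged over the labels, with 0.135% of all genes called. An unadjusted edgeR p under 0.05 was found for 1 of the 26, and for 1706 of the 19199 genes tested. DESeq2 called 1 of the 26, Mfsd2a. There were 10 genes above 0 and 16 below, with a median of -0.08 log2, against -0.01 over all genes tested. Mfsd2a, a lysophospholipid transporter of brain endothelium, came nearest: it had 20.7 and 17.8 CPM in A18w libraries labelled Mcph1KO and 22.3 and 21.1 CPM in A18w WT libraries, against 23.8 and 31.4 CPM in A6w libraries labelled Mcph1KO and 36.2 and 32.8 CPM in A6w WT libraries. Its A18w libraries all lay below its A6w libraries (-0.60 ± 0.12 log2, edgeR adjusted p = 0.099). Of 10 endothelial genes, 9 were below 0 and 1 above in the same averaged step (median -0.15 log2), with 0 called by edgeR. The part of endothelial cells in the Mfsd2a values was not tested. Arrdc2, an arrestin-domain gene, had the highest averaged difference (0.56 ± 0.26 log2, edgeR adjusted p = 0.569).

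The list also differed between the labels in its counts of genes above 0. In WT libraries alone 15 of the 26 genes were above 0 (median 0.04 log2), led by Arrdc2 (1.11 ± 0.37), Ddit4 (0.95 ± 0.29), an inhibitor of mTORC1 signalling, and Nfkbia (0.82 ± 0.25), the inhibitor of NF-kB. In libraries labelled Mcph1KO alone 3 of the 26 were above 0 (median -0.39 log2), and the same genes had 0.01 ± 0.37 (Arrdc2), -0.33 ± 0.29 (Ddit4) and -0.29 ± 0.24 (Nfkbia). The edgeR test of the difference between the labels in this step called none of the 26 and 0 of all genes (0%); 7 of the 26 and 484 of all genes had an unadjusted p under 0.05, and DESeq2 called 9 genes over the whole table. For the 7 genes, whose choice used the same libraries, that difference was -1.99 ± 0.29 log2 for Sgk1, -0.88 ± 0.24 for Tsc22d3, 0.17 ± 0.32 for Fkbp5, -0.98 ± 0.91 for Hif3a, 0.08 ± 0.54 for Zbtb16, 0.01 ± 0.29 for Nr3c1 and 0.77 ± 0.68 for Nr3c2.

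**Figure D3:**
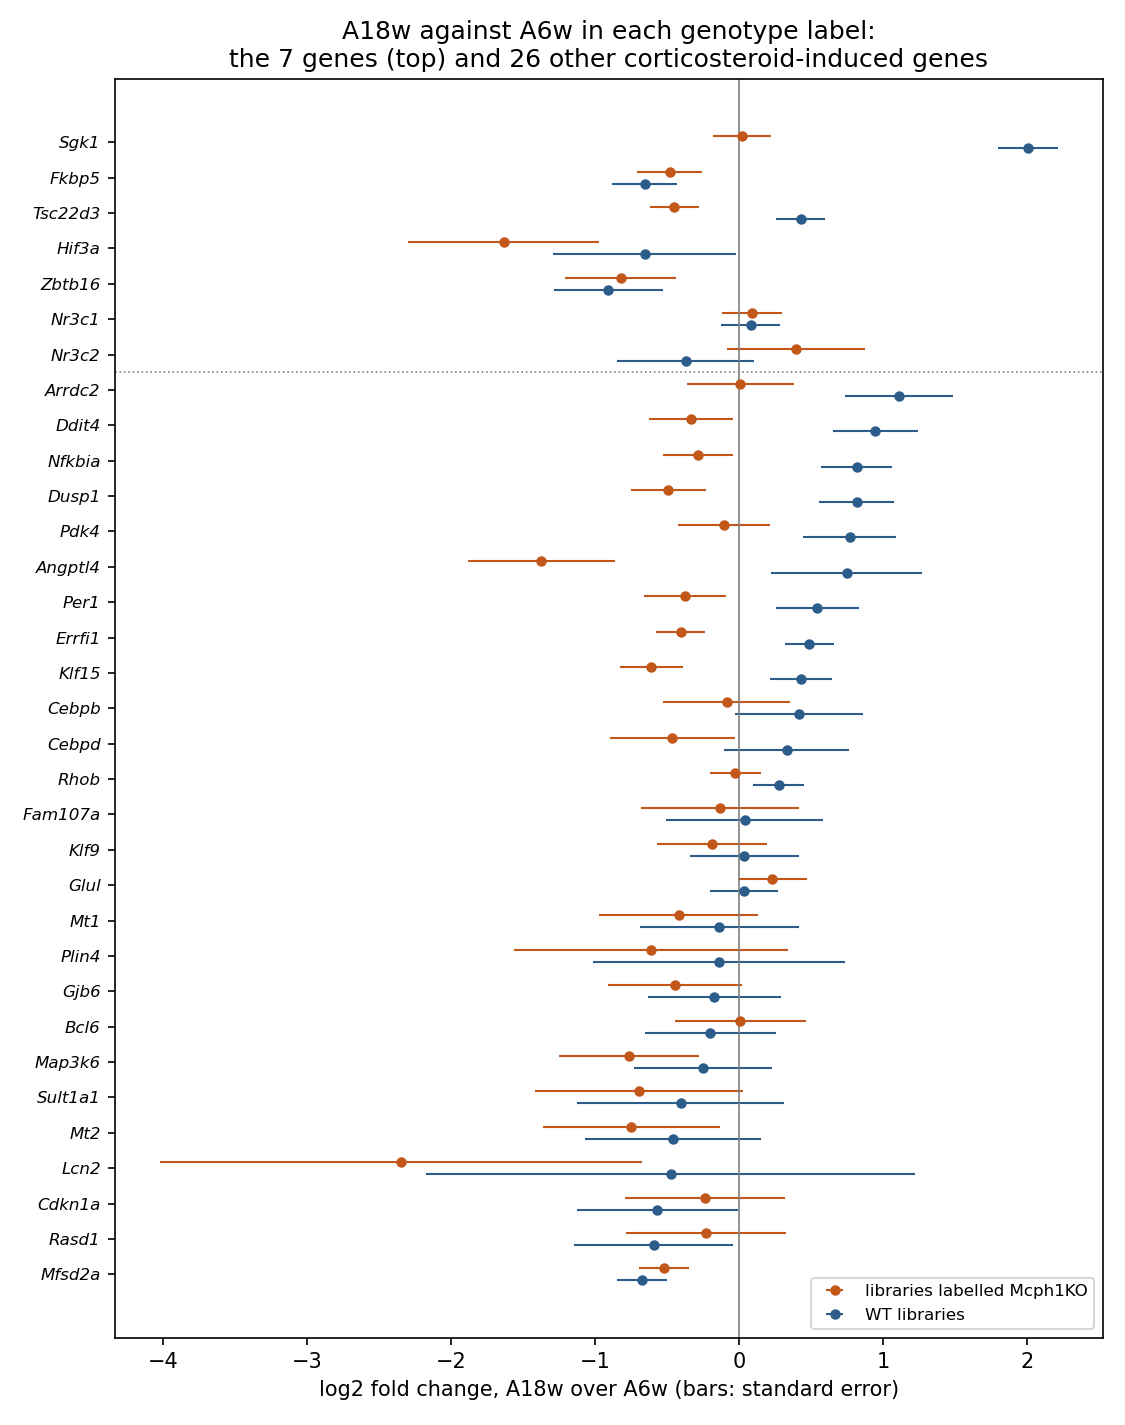
Log2 fold change of A18w over A6w (x axis; bars are standard errors of the fit) for the 7 genes (top) and 26 other corticosteroid-induced genes (below the dotted line), in libraries labelled Mcph1KO (orange, upper of each pair) and in WT libraries (blue). Sgk1 has 0.02 and 2.01, and several genes from Arrdc2 to Klf15 lie below 0 or near it under the Mcph1KO label and above 0 in WT.

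Markers of other cells and regions moved in some of the same libraries. The 12 mature oligodendrocyte genes (myelin genes such as Mbp) summed to 5574 and 5273 CPM in A18w libraries labelled Mcph1KO and 11621 and 6445 CPM in A18w WT libraries. They summed to 5191 and 5986 CPM in A6w libraries labelled Mcph1KO and 8996 and 5076 CPM in A6w WT libraries. The highest sum was in A18w WT 1 (Sgk1 at 263 CPM) and the next in A6w WT 1 (Sgk1 at 53.7 CPM). The 10 choroid plexus genes summed to 1224 CPM in the A18w WT library numbered 2 and to 177 to 291 CPM in the other adult libraries. Of the 10 striatal genes, 5 were called higher at A18w than at A6w by edgeR (0.104% of all genes were called higher) and 10 of 10 were above 0 (median 2.60 log2); Drd2, a dopamine receptor, had 4.27 ± 0.54. Without both A18w libraries numbered 1, which had the highest striatal sums, the Sgk1 step was 0.93 log2 averaged over the labels and its difference between the labels was -1.63, an alternative chosen after seeing the data; the A18w libraries kept there still had 852 and 573 CPM of striatal genes. The part of the striatal, oligodendrocyte and choroid plexus markers in the Sgk1 values was not tested.

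**Figure D4:**
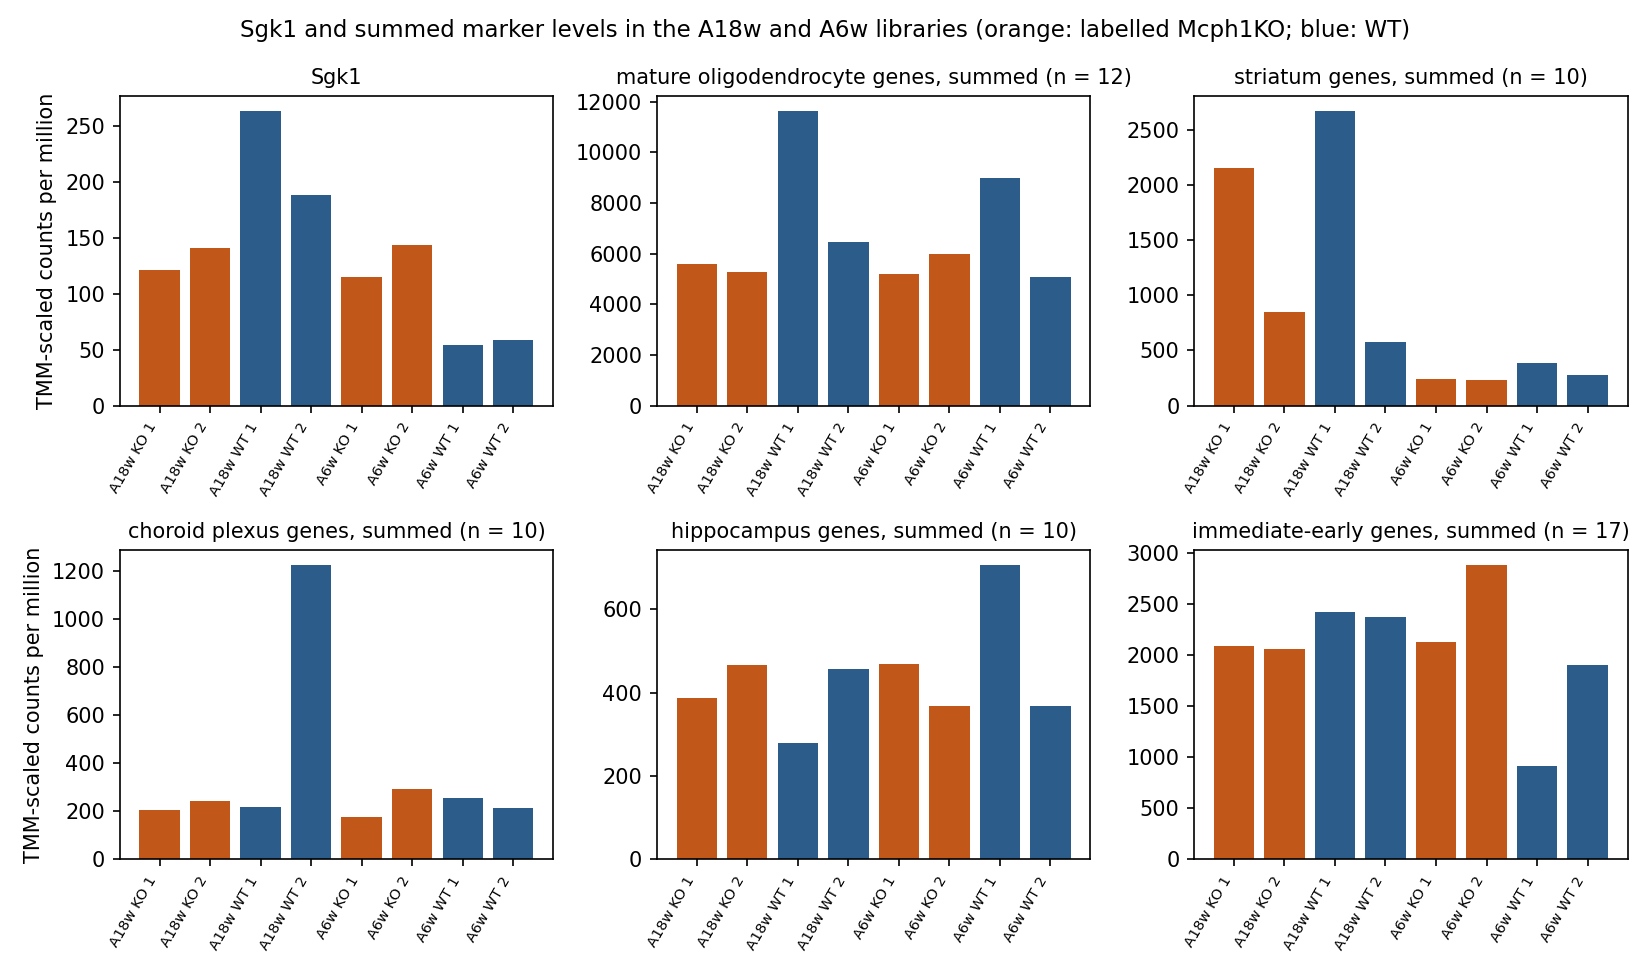
Sgk1 and the summed levels of 5 gene lists (y axes, TMM-scaled CPM, each from 0) in the 4 A18w and the 4 A6w libraries (x axis; KO stands for libraries labelled Mcph1KO, orange; WT is blue). The sums peak in different libraries: oligodendrocyte and striatal genes in A18w WT 1, choroid plexus genes in A18w WT 2 and hippocampal genes in A6w WT 1, and immediate-early genes are lowest in A6w WT 1.

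Between libraries labelled Mcph1KO and WT libraries at E17.5 and at P4, none of the 7 genes was called by edgeR (0% of genes called at each; 303 genes at E17.5 and 718 at P4 had an unadjusted p under 0.05, and DESeq2 called 10 and 13 genes). The E17.5 and P4 libraries were among those the 7 genes were selected on, so the lack of calls there is not an independent check. The choice rested above all on the A6w and A18w libraries, so the differences at these stages are given without a test. Of all genes 0% were called by edgeR at A6w and at A18w. Sgk1 was at 1.20 ± 0.20 log2 in libraries labelled Mcph1KO at A6w, a fold of 2.30, and at -0.79 ± 0.20 at A18w. Averaged over the 4 stages the differences of Sgk1 offset each other, at 0.03 ± 0.10 log2. This average takes in the A6w and A18w libraries, so no call is given for the 7 genes. Of all genes 0.0521% were called in it (0.0417% higher and 0.0104% lower).

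Tsc22d3 followed Sgk1 in sign, with 0.41 ± 0.17 log2 at A6w and -0.47 ± 0.17 at A18w. Fkbp5 was at -0.43 ± 0.22 log2 at A6w and -0.26 ± 0.23 at A18w, and Hif3a at -0.06 ± 0.62 and -1.04 ± 0.67. Zbtb16 was at -0.57 ± 0.38 log2 at A6w and -0.49 ± 0.38 at A18w. At A18w both libraries labelled Mcph1KO lay below both WT libraries for Sgk1, Tsc22d3, Fkbp5 and Hif3a, which is 4 of the 7 genes, against 12.4% of all genes, and 0 of the 7 lay above (10.4% of all genes). At A6w both lay above for 2 of the 7, Sgk1 and Tsc22d3, against 16.7% of all genes, and below for 1 of the 7, Zbtb16, against 15.4%; nothing is read from these shares. The receptor genes had -0.09 ± 0.21 log2 (Nr3c1) and -0.72 ± 0.48 (Nr3c2) at A6w, and -0.07 ± 0.21 (Nr3c1) and 0.05 ± 0.48 (Nr3c2) at A18w.

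At P4 Zbtb16 had 19.5 and 11.7 CPM in libraries labelled Mcph1KO and 7.31 and 9.51 CPM in WT libraries (0.89 ± 0.39 log2). Nr3c2 had 24.4 and 24.9 CPM in P4 libraries labelled Mcph1KO and 12.1 and 16.8 CPM in P4 WT libraries (0.76 ± 0.49 log2). These were the 2 of 7 genes at P4 whose libraries labelled Mcph1KO both lay above WT, against 15% of all genes, and neither was called. Sgk1 and Tsc22d3 were the 2 of 7 with both libraries below WT at P4 (14.6% of all genes), with -0.05 ± 0.20 and -0.07 ± 0.17 log2. At E17.5 Hif3a was the 1 gene of 7 with both libraries labelled Mcph1KO above WT (9.83% of all genes) and Zbtb16 the 1 gene with both below (10.3%).

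The 26 corticosteroid-induced genes gave no call between the labels at any stage by edgeR. At E17.5 6 of them were above 0 in libraries labelled Mcph1KO (median -0.08 log2) and at P4 22 were (median 0.42 log2), with 0 and 5 at an unadjusted p under 0.05. At P4 the list summed to 1378 and 900 CPM in libraries labelled Mcph1KO and 813 and 891 CPM in WT libraries. The library Mcph1KO 1, with the highest sum, was also the highest of the 4 P4 libraries in astrocyte genes (1589 CPM, against 985 to 1199 CPM) and microglial genes (174 CPM, against 109 to 123 CPM), and their part was not tested. At A6w 14 of them were above 0 in libraries labelled Mcph1KO, with a median of 0.11 log2 against 0.00 over all genes. There 9 of them had an unadjusted edgeR p under 0.05, as had 763 of the 19199 genes tested. At A18w 1 was above 0 and 25 were below, with a median of -0.26 log2 against -0.01 over all genes. There 1 of them had an unadjusted edgeR p under 0.05, as had 326 of the 19199 genes tested. The members of highest level, Glul (glutamine synthetase) and Rhob (a small GTPase), had -0.33 ± 0.24 and 0.16 ± 0.18 log2 at A6w and -0.13 ± 0.24 and -0.14 ± 0.18 log2 at A18w. Immediate-early genes, the transcription factors and effectors induced within minutes of neuronal activity, stood beside them at A6w. Their 17 genes summed to 2135 and 2887 CPM in A6w libraries labelled Mcph1KO, against 919 and 1903 CPM in A6w WT libraries, and 16 of 17 were above 0 (median 1.09 log2, 13 at an unadjusted p under 0.05, 0 called by edgeR). At A18w the same sums were 2095 and 2063 CPM in libraries labelled Mcph1KO and 2423 and 2372 CPM in WT libraries, with a median of -0.10 log2. The part of these genes in the Sgk1 difference was not tested; 1 gene, Dusp1, is on both lists.

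The earlier steps were taken with the labels averaged. The step from E17.5 to P4 was tested for the 7 genes. Its libraries were also among those the genes were selected on, so the adjusted p-values are not an independent check. The step from P4 to A6w is only described for them, as the choice rested above all on the A6w and A18w libraries. From E17.5 on, 4 of the 7 genes rose at P4 and none fell, while 36.8% of all genes were called, 18.9% higher and 17.9% lower. Sgk1 rose by 1.17 ± 0.15 log2 (edgeR adjusted p = 0.000105), Nr3c2 by 1.52 ± 0.36 (0.00539), Zbtb16 by 0.91 ± 0.28 (0.0225) and Nr3c1 by 0.74 ± 0.15 (0.00238). Fkbp5 was at -0.38 ± 0.16 log2 (edgeR adjusted p = 0.0768), Hif3a at -0.73 ± 0.43 (0.203) and Tsc22d3 at 0.02 ± 0.12 (0.899). The Zbtb16 call was lost without any 1 of 5 libraries: without E17.5 WT 1 the value was 0.77 log2, without E17.5 Mcph1KO 1 it was 0.94, without E17.5 Mcph1KO 2 it was 0.87, without P4 WT 2 it was 0.80 and without P4 Mcph1KO 1 it was 0.70. Fkbp5 was called without E17.5 WT 2 (-0.48 log2) and Hif3a without P4 WT 1 (-1.26 log2), and both were called without a filter on low counts.

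At A6w against P4 the differences of the 7 genes are given without a test. Of all genes 55.1% were called, 27.3% higher and 27.8% lower, and nothing is read from these shares for the 7. Nr3c1 rose by 2.23 ± 0.15 log2, to 113 to 137 CPM at A6w, against 23.4 to 32.8 CPM at P4 over both labels. Zbtb16 rose by 1.89 ± 0.28 log2, Tsc22d3 by 1.51 ± 0.12, Nr3c2 by 1.45 ± 0.35 and Sgk1 by 0.66 ± 0.14. For Sgk1 the libraries labelled Mcph1KO had 115 and 144 CPM at A6w against 53.0 and 53.1 CPM at P4, whereas the WT libraries had 53.7 and 58.6 CPM at A6w against 55.0 and 54.9 CPM at P4. The averaged rise of Sgk1 thus came from the libraries labelled Mcph1KO. Fkbp5 was at -0.08 ± 0.16 log2 and Hif3a at -0.81 ± 0.44 log2. For Hif3a the value was -1.09 log2 without P4 WT 2 and -1.27 log2 without A6w Mcph1KO 2.

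In the wider list more genes rose than fell in both of these steps. At P4 against E17.5, 9 of the 26 corticosteroid-induced genes rose and 2 fell, against 18.9% and 17.9% of all genes (median 0.61 log2, against 0.03 over all genes). Klf9, a Krueppel-like factor, rose by 2.86 ± 0.30 log2, and Dusp1, a MAP kinase phosphatase, fell by 1.08 ± 0.19. At A6w against P4, 20 of the 26 rose and 1 fell, against 27.3% and 27.8% of all genes (median 1.26 log2, against -0.06 over all genes). Fam107a rose by 4.73 ± 0.45 log2, Klf9 by 2.84 ± 0.29 and Glul by 2.27 ± 0.18. Glia and neurons mature over the same step: the summed level of the 10 astrocyte genes was 5105 to 6315 CPM at A6w against 985 to 1589 CPM at P4, and that of the 12 mature oligodendrocyte genes 5076 to 8996 CPM against 103 to 156 CPM. The part of these cells in the rises was not tested.

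Among genes of other parts of the pathway there was no call between A18w and A6w, a step in which 0.135% of all genes were called. None of the 14 receptor chaperone genes, 10 coregulator genes, 8 measured genes of steroid metabolism and entry, 4 other steroid receptor genes or 18 measured genes of the SGK kinase pathway was called by edgeR. Their medians were 0.09, -0.17, -0.17, -0.37 and -0.01 log2 in that order, against -0.01 over all genes. In the same order 0, 2, 1, 0 and 3 of them had an unadjusted edgeR p under 0.05, as had 1706 of the 19199 genes tested. All 10 coregulator genes were below 0, and 12 of the 14 chaperone genes were above 0. In the kinase pathway the 2 genes of highest level were Nedd4, a ubiquitin ligase (-0.11 ± 0.13 log2), and Ndrg2, from a family of SGK1 substrates (0.22 ± 0.15). None of the 16 hypoxia response genes, 19 clock genes or 17 immediate-early genes was called in this step (medians -0.04, 0.03 and 0.22 log2; 3, 1 and 2 at an unadjusted p under 0.05). At A6w against P4, 4 of the 8 genes of steroid metabolism and entry rose and 2 fell, where 27.3% of all genes rose and 27.8% fell. Among them, Hsd11b1, which regenerates active corticosteroid inside cells, rose by 3.46 ± 0.36 log2, and Abcb1a, a transporter that pumps steroids out of the brain, by 1.64 ± 0.14. In the same step Ndrg2 rose by 1.60 ± 0.15 log2, and 5 of the 18 kinase pathway genes rose and 6 fell, shares near those of all genes.

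Stem cells carried a different set of these transcripts. Against E17.5 WT cortex, 6 of the 7 genes were called by edgeR in the fit of the 10 wild-type libraries, with 68% of 19466 genes called. Sgk1 had 569 and 653 CPM in mESC libraries, against 22.1 and 28.2 CPM in E17.5 WT libraries, and was 4.60 ± 0.25 log2 higher (edgeR adjusted p = 1.39e-07). Fkbp5 had 198 and 144 CPM in mESC libraries, against 73.5 and 56.0 CPM in E17.5 WT libraries (1.4 ± 0.26 log2). Every mESC library of both genes lay above every WT cortex library of the same gene. Tsc22d3 was the reverse, with 2.52 and 2.97 CPM in mESC libraries, against 33.2 and 42.9 CPM in E17.5 WT libraries, and fell by 3.79 ± 0.24 log2. Zbtb16 had 9 and 10 counts in mESC libraries, against 206 and 255 counts in E17.5 WT libraries, and fell by 4.16 ± 0.33 log2. Nr3c2 had 25 and 23 counts in mESC libraries, against 198 and 262 in E17.5 WT libraries, and fell by 2.83 ± 0.62 log2. Hif3a fell by 1.98 ± 0.56 log2 (edgeR adjusted p = 0.00924), a call lost without the mESC library numbered 2 (-1.63 log2). Nr3c1 had 14.9 and 22.2 CPM in mESC libraries, against 13.7 and 15.4 CPM in E17.5 WT libraries, and was not called (0.35 ± 0.24 log2, edgeR adjusted p = 0.211). Thus 2 of the 7 genes rose and 4 fell, where 32.7% of all genes were called higher and 35.3% lower. Cell type, the change from culture to tissue and any difference in strain cannot be told apart in this comparison.

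The 5 genes most like Sgk1 over the 16 cortex libraries did not include Fkbp5, Tsc22d3, Hif3a or Zbtb16. The ranks of the wider corticosteroid-induced list were not examined. Whether the 5 genes are themselves corticosteroid targets was not tested. Among 11655 genes with a mean of at least 5 CPM, the 5 highest Pearson correlations of log2 CPM were those of Ass1 (r = 0.956), Cep126 (0.940), Tdrd7 (0.940), Gatm (0.938) and Gpr180 (0.937). Ass1, an enzyme of arginine synthesis, had 35.5 and 30.6 CPM in A18w libraries labelled Mcph1KO and 42.1 and 32.4 CPM in A18w WT libraries. It had 27.3 and 22.6 CPM in A6w libraries labelled Mcph1KO and 17 and 16 CPM in A6w WT libraries, so at A6w its genotype order was that of Sgk1. Nr3c1 ranked 796 (0.852), Tsc22d3 902 (0.847), Nr3c2 1838 (0.800) and Zbtb16 3185 (0.674), while Hif3a (-0.744) and Fkbp5 (-0.828) ran against Sgk1. These values share the difference between stages, and the same libraries, depth and scaling. With the group means taken off, the highest were Rbms1 (r = 0.956), Fam234a (0.940), Fasn (0.937), Rims2 (0.933) and Sv2c (0.922), and Tsc22d3 ranked 185 (0.746). Of the other genes Nr3c1 had 0.469, Hif3a 0.432, Zbtb16 0.413, Nr3c2 0.00 and Fkbp5 -0.01. With 2 libraries in a group these deviations rest on 8 pairs, and they are given as a description only.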

How the data were processed

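The authors deposited gene-level estimated counts, which they made with Salmon 1.4.0 after Trimmomatic 0.39 and FastQC on GRCm38.p6, per the submitters' processing notes; the annotation release is not given in the sources used here. They arrived as whole numbers, so no rounding was needed. Reads shared between genes had been apportioned by the estimate, and the sources used here state no strand setting, so overlapping and antisense genes cannot be told apart. The labels gave each group and replicate number.

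In R 4.3.3, edgeR 4.0.16 (limma 3.58.1) fitted the 16 cortex libraries together, with 1 mean per group, filterByExpr (minimum count 10), TMM factors, quasi-likelihood F tests, 8 residual degrees of freedom and Benjamini-Hochberg adjustment over all genes. Stem cells were fitted with the 10 wild-type libraries. The fit was also run on simulated counts, drawn as independent libraries without the stage differences of these data. Its outcome is not given, and no result here rests on it. Also tried were RLE size factors, DESeq2 1.42.0, a fit with every counted gene, fewer or all 18 libraries, a replicate block, each library left out and, added after seeing the data, both A18w libraries numbered 1 left out. No 2 libraries of a group were copies.

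The 7 genes and the 24 gene lists were chosen with earlier results of these data known, so differences of the 7 genes at or between A6w and A18w are given as descriptions. Tests of the 7 genes at E17.5, at P4 and against stem cells also use libraries they were selected on. Those tests are therefore not independent checks. All 7 are named throughout. Up to 4 genes of a list are named per comparison, ranked by adjusted p among the called ones, and otherwise the 2 of highest mean CPM; any gene of the corticosteroid-induced list may be named between A18w and A6w. The genes most like Sgk1 are the 5 with the highest correlation. Mbp and Dusp1 at A6w are named as examples chosen after their values were seen.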

Additional observations from a re-analysis of the deposited data

Results flagged for a closer look

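For Sgk1, Tsc22d3, Hif3a and Zbtb16 both libraries labelled Mcph1KO lay on one side of both WT libraries at 1 stage and on the other side at another. Sgk1 had a difference between labels of -0.79 log2 at A18w and 1.20 at A6w, which differ by -1.99. The same libraries had entered the choice of the genes, so no test is given. Between A6w and P4 the Sgk1 differences, 1.20 and -0.05 log2, differ by 1.25. For Tsc22d3 the difference was -0.88 between A18w and A6w and 0.48 between A6w and P4. For Hif3a it was -1.51 between A18w and E17.5, and for Zbtb16 it was -1.47 between A6w and P4 and 1.5 between P4 and E17.5. The differences between the other stages were not tested. Taken pair by pair, such a turn was seen in 2.11% of all genes for A18w against E17.5, 3.73% for P4 against E17.5, 3.93% for A18w against A6w and 6.89% for A6w against P4; the share of genes with a turn at any pair of stages was not computed. With 2 libraries in a group, no single library could be tested as standing apart.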

How the results depend on the processing

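Without a filter on low counts edgeR called 1 of the 7 genes (Sgk1) between labels at A6w, 1 at A18w, 3 (Sgk1, Zbtb16, Nr3c2) in genotype by stage and 1 (Sgk1) in the genotype difference of the A18w step, and 3 of the induced list (Mt2, Lcn2, Mfsd2a) in that step. DESeq2 called 1 (Sgk1) at A6w, in genotype by stage and in the genotype difference, and 1 of the list (Mfsd2a). All these calls of the 7 genes use A6w or A18w libraries, which had entered the choice of the genes, and nothing is read from them. The step was 0.0183 in libraries labelled Mcph1KO alone and 2.01 in WT libraries alone for Sgk1, and -0.45 and 0.43 for Tsc22d3.

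Leaving out 1 library turned the sign of small differences between labels. At A6w the values ran from -0.98 to 0.51 for Hif3a (0.50 without WT 1, 0.51 without Mcph1KO 1), -1.37 to 0.52 for Nr3c2 (0.52 without WT 1) and -0.225 to 0.0485 for Nr3c1 (0.0485 without Mcph1KO 1). At A18w they ran from -0.45 to 0.46 for Nr3c2 (-0.27 without WT 1, -0.45 without Mcph1KO 2), -1.28 to 0.0172 for Zbtb16 (0.0172 without Mcph1KO 1) and -0.31 to 0.13 for Nr3c1 (0.13 without Mcph1KO 1, and 0.0594 without both libraries numbered 1). Averaged over stages Sgk1 ran from -0.0311 to 0.094 (-0.0134 without E17.5 WT 1, -0.0138 without A6w Mcph1KO 2, -0.0311 without E17.5 Mcph1KO 2, -0.0259 without A18w WT 2). Tsc22d3 at P4 against E17.5 ran from -0.0689 (without E17.5 WT 1) to 0.12, and Fkbp5 at A6w against P4 from -0.244 to 0.0646 (0.0646 without A6w WT 2, 0.0318 without A6w Mcph1KO 1, 0.0204 without P4 Mcph1KO 1). In the step between A18w and A6w the averaged values ran from -0.32 to 0.63 for Nr3c2, -0.03 to 0.19 for Nr3c1 and -0.12 to 0.08 for Tsc22d3. The causes were not tested. The Sgk1 genotype difference of the A18w step ran from -2.21 to -1.73.

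Counts over all genes moved more. Between A18w and A6w edgeR called 26 genes, against 598 without a filter, 235 by DESeq2, 0 with the compared libraries only, 0 without both A18w libraries numbered 1, and 2 to 93 with 1 library left out. Between labels edgeR called 0 at E17.5, P4, A6w and A18w, against 105, 225, 262 and 107 without a filter and 10, 13, 24 and 3 by DESeq2. Averaged over stages it called 10, against 124 without a filter, 31 by DESeq2 and 6 without both A18w libraries numbered 1. Genotype by stage gave 0, against 466 without a filter and 8 by DESeq2, and the genotype difference of the A18w step 0, against 158 and 9.

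The correlation of deviations of same-numbered libraries was not over 0.1 at every stage ( 0.478 at E17.5, 0.209 at P4, 0.0829 at A6w and 0.295 at A18w), so the numbers were not taken as pairs in the results given. With a replicate block the Sgk1 difference between labels was 1.19 at A6w and -0.77 at A18w, its genotype difference of the step was -1.96, and 74 genes were called between A18w and A6w, with 7, 5, 4 and 4 between labels at the 4 stages, 16 averaged, 9 in genotype by stage and 2 in the genotype difference.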

Other observations

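Immediate-early genes had different counts above 0 by label between A18w and A6w. In libraries labelled Mcph1KO alone 1 of 17 was above 0 (median -0.33 log2), and in WT libraries alone 16 of 17 were (median 0.82 log2). The edgeR test of the difference between labels called 0 of the 17, with 8 at an unadjusted p under 0.05. The library A6w WT 1 had the lowest adult sum of these genes (919 CPM, against 1903 to 2887 CPM in the other adult libraries). For 17 of 19 clock genes the difference between labels at A18w was below 0 (median -0.31 log2, against -0.01 over all genes), with 1 at an unadjusted p under 0.05 and 0 called by edgeR. Their sum was 1769 and 1784 CPM in A18w libraries labelled Mcph1KO and 2610 and 1867 CPM in A18w WT libraries, and the WT library with 2610 CPM was also the highest in striatal and oligodendrocyte genes.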
